A study of Homo sapiens with 2 samples.

Results

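The immediate early genes and the feedback inhibitors of MAP kinase signalling were examined as 46 listed genes, chosen by symbol as the AP-1, EGR, NR4A, KLF, ZFP36 and IER families, the growth-factor-responsive genes MYC, BTG2, SRF, CCN1, CCN2, ETV4 and ETV5, and the inhibitors of the DUSP, SPRY and SPRED families with PHLDA1 and ERRFI1. Of these, 44 were measured by a probe set with a single gene symbol, among 18417 genes so named, and EGR2 and BTG2 were not analysed here. The list was chosen with earlier results of these data known. The RNA had been immunoprecipitated through Argonaute2 (Ago2), the protein on which a microRNA meets its target mRNAs, from A549, a widely used line derived from a human lung adenocarcinoma. One group overexpressed miR-130b and the other was transfected with an empty vector, with 1 array per group. The labels name no clone, time after transfection or dose, and their extraction text speaks of excised tissue and of a purification of miRNAs, which matches neither cultured cells nor mRNA, so how the RNA on the arrays was purified is uncertain. With 1 array per group there is no replicate error, so no test was made and every difference describes these 2 arrays only.

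Immediate early genes are transcribed within minutes of a growth factor, stress or calcium signal, without new protein synthesis, and their mRNAs are short-lived. Many encode transcription factors (FOS and JUN proteins, which pair as AP-1, and EGR, NR4A and KLF proteins), while ZFP36 proteins bind AU-rich elements and speed mRNA decay. The same signals induce the inhibitors that end them: DUSP phosphatases remove the activating phosphates from ERK, p38 or JNK, and Sprouty and SPRED proteins restrain signalling from receptor tyrosine kinases to RAS and RAF. ETV4 and ETV5 are ETS factors whose mRNAs follow ERK activity.

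The overexpressed microRNA has 2 mature arms, shown because they are the agent that separates the groups, with the seed (bases 2 to 8 from the 5′ end) in capitals, from RefSeq on GRCh38.p14 at chr22:21653354-21653375 (+ strand) for the 3p arm and chr22:21653316-21653336 (+ strand) for the 5p arm.
hsa-miR-130b-3p: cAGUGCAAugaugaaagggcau
hsa-miR-130b-5p: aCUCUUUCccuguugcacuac
The probe set of its gene, MIR130B, stood at 12.64 on the log2 scale in the miR-130b array and at 6.66 in the empty-vector array, in the direction of the labels. Of the A549 epithelial markers, 8 of 9 measured were at or above the median level of all named genes (a mean of 8.64 or more over both arrays), with KRT8, a simple-epithelial keratin, at 13.48 with miR-130b and 13.38 with the empty vector. CDH1, E-cadherin, stood at 11.49 with miR-130b and 12.61 with the empty vector. Of the markers of other cell types, 1 of 8 fibroblast genes, 2 of 6 leukocyte genes and 0 of 6 endothelial genes reached that level. Fibroblast markers ranged from 4.55 to 9.05 with miR-130b and from 4.46 to 8.74 with the empty vector. Leukocyte markers ranged from 4.58 to 9.96 with miR-130b and from 4.38 to 11.14 with the empty vector. All 8 fibroblast and all 6 endothelial genes were higher with miR-130b, as were 65.6% of the 9208 named genes below the median level. The part of these markers in the results was not tested.

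Most of the 44 genes were higher with miR-130b, and the NR4A receptors, FOSB and DUSP10 differed most. In all, 31 were higher, 12 were lower and SPRY1 had the same value on both arrays, with a median difference (miR-130b minus empty vector, log2) of 0.19. Over all named genes 58.6% were higher, 40.6% were lower and the median was 0.053, and among the 9209 genes at or above the median level 51.5% were higher and the median was 0.010. A difference of 1 is 2-fold: 5 members were at least 2-fold higher, against 1.06% of all named genes and 1.32% of those at or above the median level, and 0 were at least 2-fold lower, against 1.37%. At 1.5-fold, 11 members were higher and 2 lower, where all named genes gave 3.65% and 4.65%. Distinct probe sets of 1 gene disagreed in their difference with a pooled SD of 0.16 over 356 genes, all at or above the median level. Every measured member but IER3 had 1 probe set, so for those members the SD comes from other genes. By more than 2 such SDs (0.33), 18 members were higher and 4 lower, against 11.8% and 11.6% of all named genes. This SD leaves out the variation between cultures and precipitations. EGR3, EGR4 and DUSP2 lay below the levels from which it was drawn. The level filter was passed by 41 members. Of these, NR4A2 and DUSP10 lay above the filter's value in the miR-130b array only and KLF4 in the empty-vector array only, so counts over the genes that passed are not given as support. RNA before precipitation was not analysed here, so altered abundance in the cell and altered binding to Ago2 both enter each difference, and in such bulk RNA fewer cells of a kind and less RNA per cell cannot be told apart.

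**Figure D1:**
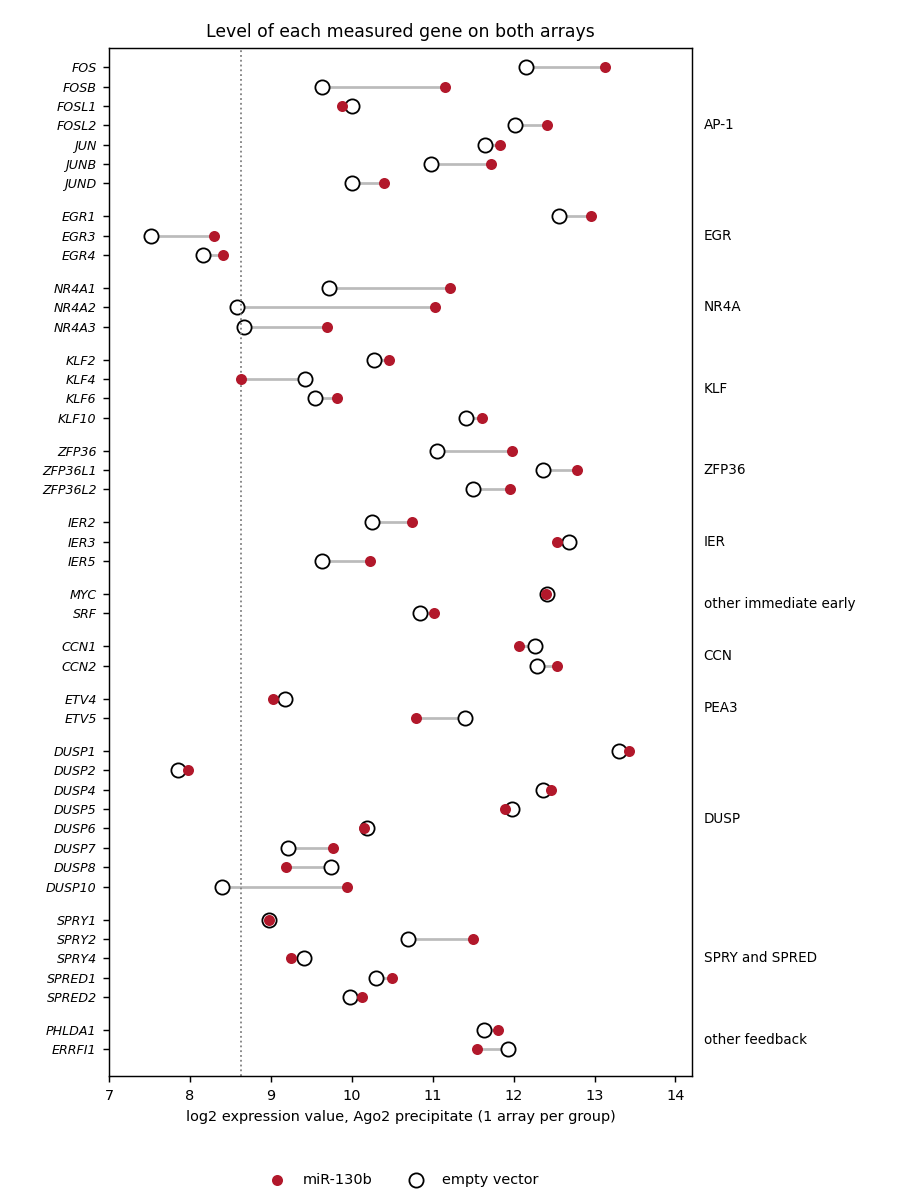
Level of the 44 measured genes on the log2 scale (horizontal axis), with filled circles for the miR-130b array and open circles for the empty-vector array, grouped by family, and a dotted line at the median level of all named genes (8.64). The widest gaps are those of NR4A2, DUSP10, FOSB, NR4A1 and NR4A3, each with the filled circle at the higher value.

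Each of the 3 NR4A genes was more than 2-fold higher with miR-130b. Each difference exceeded 6 times the SD between probe sets, which comes from other genes. The 3 NR4A genes have 1 probe set each. They encode orphan nuclear receptors that bind DNA without a classical ligand and are controlled mainly through their own abundance. NR4A2, also known as NURR1, stood at 11.02 with miR-130b and 8.59 with the empty vector. Its difference of 2.44 (5.42-fold) ranked 10 of 18417 genes from the top. NR4A1, NUR77, stood at 11.21 with miR-130b and 9.72 with the empty vector (2.80-fold higher). NR4A3, NOR1, had 9.69 with miR-130b and 8.66 with the empty vector (2.04-fold higher), just past 2-fold, and was at 0.97 (log2) after centring on the median difference of all named genes. The family was thus graded, with NR4A2 highest by 0.95 over NR4A1 and NR4A1 by 0.46 over NR4A3 on the scale of differences. The 250 bases before the RefSeq start of NR4A3 (GRCh38.p14, chr9:99821635-99821884 (+ strand)) are shown because it belongs to the family that differed most. NR4A3 had the smallest difference of that family, and no promoter window was found for NR4A2. Capitals mark TGACG, the core letters of the cAMP response element (CRE), on either strand, of which this window holds 4. This motif was added after the values were seen.
NR4A3: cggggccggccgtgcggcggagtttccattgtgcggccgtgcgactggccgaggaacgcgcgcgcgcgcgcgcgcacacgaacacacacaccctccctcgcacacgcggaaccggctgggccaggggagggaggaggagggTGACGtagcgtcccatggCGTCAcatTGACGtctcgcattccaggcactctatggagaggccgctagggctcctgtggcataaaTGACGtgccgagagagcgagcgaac
Both RefSeq windows of NR4A1 held 0 matches to TGACG, and its difference was larger than that of NR4A3.

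Of the 7 AP-1 genes, 6 were higher with miR-130b and 1 was lower, with a median of 0.40. FOSB stood at 11.15 with miR-130b and 9.64 with the empty vector, a difference of 1.51 that ranked 50 from the top. FOS, the founding member, stood at 13.13 with miR-130b and 12.15 with the empty vector (difference 0.98), which is 1.97-fold and short of the 2-fold mark. After quantile normalization of the arrays FOS was at least 2-fold higher as well. FOSL2 differed by 0.40 (12.41 with miR-130b, 12.01 with the empty vector). FOSL1, the FOS relative most closely tied to sustained ERK activity, differed by -0.13 (9.88 with miR-130b, 10.01 with the empty vector), within 1 SD between probe sets. The FOS genes therefore spread over 1.64 log2 units. Among the JUN genes JUNB had the largest difference, 0.73, with 11.71 with miR-130b against 10.98 with the empty vector. JUND stood at 10.39 with miR-130b and 10.00 with the empty vector (difference 0.39). JUN, the prototype of the family, differed by 0.19 (11.84 with miR-130b, 11.65 with the empty vector), close to the SD between probe sets. The 250 bases before the start of FOSB (chr19:45467746-45467995 (+ strand)) are shown as those of the AP-1 gene with the largest difference, with TGACG and the TATA-box letters TATAAA in capitals, 1 match each.
FOSB: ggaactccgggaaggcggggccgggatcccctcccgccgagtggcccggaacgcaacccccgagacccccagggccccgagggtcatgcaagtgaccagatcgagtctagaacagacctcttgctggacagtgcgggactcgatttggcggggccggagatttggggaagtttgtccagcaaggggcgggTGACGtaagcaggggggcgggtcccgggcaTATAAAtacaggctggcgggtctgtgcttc

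The 3 measured EGR genes, zinc-finger transcription factors, were all higher with miR-130b (median 0.41). EGR1 stood at 12.96 with miR-130b and 12.56 with the empty vector (1.33-fold higher). EGR3 had the larger difference, 0.78, but its levels of 8.30 with miR-130b and 7.51 with the empty vector lay below the median of all named genes, where array background may shrink a fold. EGR4, at 8.41 with miR-130b and 8.16 with the empty vector, differed by 0.25, within 2 SDs. EGR1 is the textbook target of serum response factor (SRF), which binds the CArG box. The 250 bases before its start (chr5:138465229-138465478 (+ strand)) hold 2 CArG boxes, in capitals.
EGR1: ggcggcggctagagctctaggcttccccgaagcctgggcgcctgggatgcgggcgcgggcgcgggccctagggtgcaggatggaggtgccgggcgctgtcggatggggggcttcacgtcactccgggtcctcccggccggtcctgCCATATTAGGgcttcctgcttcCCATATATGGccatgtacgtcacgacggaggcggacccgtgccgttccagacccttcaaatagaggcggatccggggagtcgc
SRF itself, for which a window also held 2 CArG boxes, stood at 11.01 with miR-130b and 10.85 with the empty vector, a difference of 0.17.

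The ZFP36 family, whose proteins recruit deadenylases to AU-rich mRNAs, was higher in 3 of 3 genes. ZFP36, tristetraprolin, stood at 11.98 with miR-130b and 11.05 with the empty vector (1.90-fold higher). Its relatives ZFP36L1 (12.78 with miR-130b, 12.36 with the empty vector) and ZFP36L2 (11.95 with miR-130b, 11.49 with the empty vector) differed by 0.42 and 0.46, each beyond 2 SDs between probe sets. The order within the family put ZFP36 first, and the other two differed from each other by less than 1 SD.

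The 4 Krüppel-like factors did not move together. KLF6, a widely expressed zinc-finger factor, differed by 0.27 (9.82 with miR-130b, 9.55 with the empty vector). KLF10, an early TGF-beta response gene, differed by 0.19 (11.61 with miR-130b, 11.42 with the empty vector). KLF2, best known in endothelium, also differed by 0.19 (10.46 with miR-130b, 10.27 with the empty vector), so these 3 lay within 2 SDs. KLF4, a regulator of epithelial differentiation, went the other way: it stood at 8.63 with miR-130b and 9.42 with the empty vector. That is 1.72-fold lower, the lowest difference among the 44 genes, and it ranked 465 from the bottom of all named genes. Its family median was 0.19, while the family mean was -0.035.

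IER5 and IER2, nuclear proteins of the immediate early response, were higher, and IER3, a regulator of cell survival, was not. IER5 stood at 10.22 with miR-130b and 9.63 with the empty vector (difference 0.59). IER2 stood at 10.74 with miR-130b and 10.24 with the empty vector (difference 0.49). The 3 probe sets of IER3 held 2 distinct pairs of values, with differences of -0.14 and -0.18 and averages of 12.53 with miR-130b and 12.69 with the empty vector. MYC, the growth-promoting transcription factor, was at 12.40 with miR-130b and 12.41 with the empty vector, and its sign changed under cyclic loess. The matricellular genes CCN1 (12.07 with miR-130b, 12.27 with the empty vector) and CCN2 (12.54 with miR-130b, 12.29 with the empty vector) differed by -0.20 and 0.25.

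**Figure D2:**
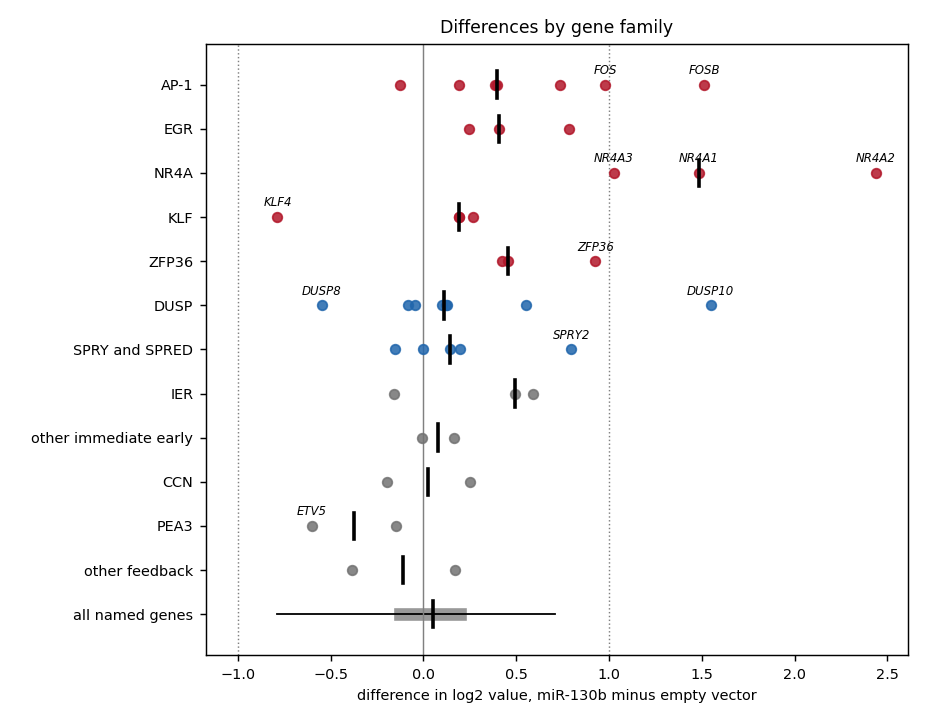
Difference in log2 value (miR-130b minus empty vector, horizontal axis) of each measured gene by family, with a black bar at the family median. The bottom row gives all named genes, with the median, the central 50% (grey bar, -0.13 to 0.20) and the central 95% (line, -0.79 to 0.71), and dotted lines stand at 2-fold. The NR4A row lies wholly past the right 2-fold line, whereas the DUSP and SPRY rows have medians of 0.11 and 0.14, with DUSP10 apart at 1.55.

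Of the 8 DUSP genes, 5 were higher and 3 lower, with a median of 0.11, and their differences did not follow the division by substrate. Among the nuclear, signal-induced phosphatases, DUSP1 stood at 13.42 with miR-130b and 13.30 with the empty vector. DUSP4 (12.46 with miR-130b, 12.36 with the empty vector), DUSP5 (11.89 with miR-130b, 11.98 with the empty vector) and DUSP2 (7.98 with miR-130b, 7.85 with the empty vector) also differed by less than 1 SD between probe sets. DUSP6, the cytoplasmic ERK phosphatase used widely as a readout of ERK output, stood at 10.14 with miR-130b and 10.19 with the empty vector, a difference of -0.045. Its close relative DUSP7 had 9.77 with miR-130b and 9.21 with the empty vector, a difference of 0.56. DUSP10 and DUSP8, which both prefer p38 and JNK, differed in opposite directions. DUSP10 stood at 9.94 with miR-130b and 8.39 with the empty vector, 2.92-fold higher and ranked 43 from the top. DUSP8 stood at 9.19 with miR-130b and 9.74 with the empty vector, 1.46-fold lower. The 250 bases before the start of DUSP8 (chr11:1572272-1572521 (- strand)) are shown because they hold the full CRE letters TGACGTCA in 2 places, in capitals, in a gene that was lower.
DUSP8: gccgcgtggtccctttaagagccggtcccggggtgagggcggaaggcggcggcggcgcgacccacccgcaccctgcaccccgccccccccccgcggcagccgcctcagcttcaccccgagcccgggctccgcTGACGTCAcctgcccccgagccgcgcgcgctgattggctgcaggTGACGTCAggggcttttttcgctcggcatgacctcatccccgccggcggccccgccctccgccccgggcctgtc
The windows of DUSP10 held 0 matches to any motif searched.

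Of the 5 Sprouty and SPRED genes, SPRY2 stood apart. SPRY2, an inducible inhibitor upstream of RAS, had 11.49 with miR-130b and 10.70 with the empty vector, 1.74-fold higher. SPRY4 had 9.25 with miR-130b and 9.40 with the empty vector, and SPRED1 (10.50 with miR-130b, 10.30 with the empty vector) and SPRED2 (10.13 with miR-130b, 9.98 with the empty vector), which work with neurofibromin to hold RAS inactive, differed by 0.20 and 0.14. SPRY1 was listed at 8.97 on both arrays, as 496 of the 33297 probe sets had identical values on both. Under the 3 other scalings its difference ran from -0.053 to 0.036.

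Of the other genes that read out ERK and EGFR signalling, ETV5 and ERRFI1 were lower by more than 2 SDs between probe sets, and ETV4 and PHLDA1 differed by less than 2 SDs. ETV5, an ETS factor of the PEA3 group, stood at 10.79 with miR-130b and 11.39 with the empty vector, 1.52-fold lower. ETV4, of the same group, had 9.02 with miR-130b and 9.17 with the empty vector, a difference of -0.15 that lies within 1 SD. ERRFI1, which encodes the EGFR inhibitor MIG6, was 1.31-fold lower (11.55 with miR-130b, 11.93 with the empty vector), while PHLDA1, an ERK-responsive gene, differed by 0.17, within 2 SDs (11.80 with miR-130b, 11.64 with the empty vector).

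Set side by side, the AP-1, EGR, NR4A, KLF and ZFP36 families had larger differences than the DUSP, SPRY and SPRED genes. Of the 20 measured genes of the first set, 18 were higher with miR-130b and 2 lower, with a median of 0.41 and a range from -0.79 to 2.44. Of the 13 feedback genes, 8 were higher, 4 lower and 1 equal, with a median of 0.12 and a range from -0.55 to 1.55. The share of feedback genes that were higher, 61.5%, was close to the 58.6% of all named genes. Without the NR4A genes the first set had a median of 0.40 over 17 genes, and without DUSP10 the feedback set had a median of 0.11 over 12. By more than 2 SDs between probe sets, 13 of the first set were higher and 1 lower, against 3 higher and 1 lower among the feedback genes. Of all named genes 11.8% were higher by that much and 11.6% lower. The medians differed by 0.29, and the sets overlapped: 3 feedback genes (DUSP7, DUSP10 and SPRY2) lay above the median of the first set. Genes are not replicates, so this difference was not tested.

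**Figure D3:**
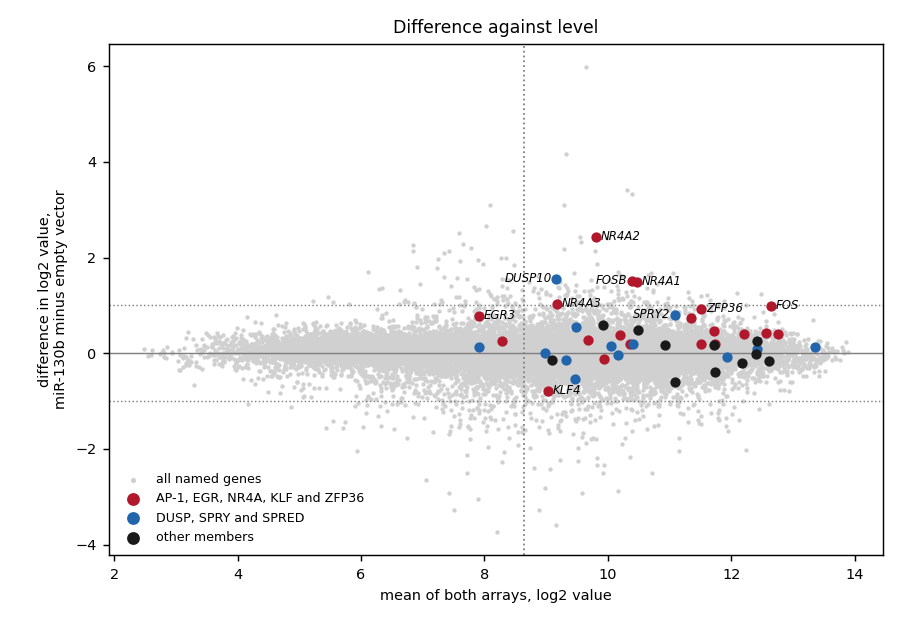
Difference in log2 value (miR-130b minus empty vector, vertical axis) against the mean of both arrays (horizontal axis) for the 18417 named genes in grey, with the first set in red, the DUSP, SPRY and SPRED genes in blue and the other members in black. The vertical dotted line marks the median level and the horizontal ones 2-fold. NR4A2, DUSP10, FOSB, NR4A1 and NR4A3 lie past the upper line, and FOS just under it at a high level.

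In the signalling cascade that feeds these genes no measured member differed 2-fold. That is near the share of all named genes, of which 1.06% were at least 2-fold higher and 1.37% lower. Of all named genes 58.6% were higher by any amount. Of 19 measured genes from RAS to ERK and its kinases, 13 were higher and 6 lower, with a median of 0.057 and 0 at least 2-fold either way, and after centring on the median of all named genes 10 were higher and 9 lower. The largest differences among those that passed the filter were those of RPS6KA5 (0.62), the kinase MSK1 that phosphorylates CREB and histone H3 at immediate early genes, and KSR1 (0.44), a scaffold of the RAF-MEK-ERK module. On the lower side were MKNK2 (-0.32), an ERK-activated kinase of eIF4E, and SOS2 (-0.13), a RAS exchange factor. The 14 genes of the p38 and JNK cascade had a median of 0.042 (10 higher and 4 lower, or 7 and 7 after centring), with MAP3K5 (0.73), the stress kinase ASK1, and MAP2K4 (0.35) highest and MAPKAPK3 (-0.13) and MAPK12 (-0.11) lowest. MAP3K5 lay above the filter's value in the miR-130b array only. Of 12 partners of SRF and CREB, 7 were higher and 5 lower, with a median of 0.016, whereas after centring 5 were higher and 7 lower, with a median of -0.037. ELK3 (0.38) and MRTFB (0.33), both cofactors of SRF, were highest, and CREB1 (-0.14) and ELK4 (-0.11) lowest.

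Cytoskeletal SRF targets, which respond to SRF with MRTF cofactors, were also close to 0. Of 16, 10 were higher and 6 lower (9 and 7 after centring), with a median of 0.091. Of all named genes 58.6% were higher and 40.6% lower. The actin-binding gene CNN3 (0.89) and tropomyosin TPM2 (0.40) were highest, FHL2 (-0.75) and TGFB1I1 (-0.17) lowest. Targets of YAP and TEAD, the group that CCN1 and CCN2 also belong to, were lower in 8 of 12 genes, with a median of -0.17. ARHGAP29 was 2.53-fold lower (8.41 with miR-130b, 9.75 with the empty vector), above the filter's value in the empty-vector array only, and AJUBA differed by -0.65, while NT5E (0.55) and TGFB2 (0.43) were highest.

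Further immediate and delayed early genes split into both directions. Of 35 measured, 20 were higher and 15 lower, close to all named genes, of which 58.6% were higher and 40.6% lower. The median was 0.037 over a range from -0.84 to 1.67, and after centring 17 were higher and 18 lower. The 5 that were at least 2-fold higher, against 1.06% of all named genes, were HES1, EPHA4, SGK1, SNAI1 and ID1. Of these, EPHA4 and SNAI1 lay below the level filter. HES1, a Notch- and serum-responsive repressor, stood at 11.89 with miR-130b and 10.22 with the empty vector. SGK1, a serum- and glucocorticoid-induced kinase, stood at 10.52 with miR-130b and 9.13 with the empty vector. At the other end were IL6 (-0.84), the cytokine, and ID2 (-0.82), an inhibitor of helix-loop-helix factors. Several secreted factors on this list were lower, and the EGFR ligands HBEGF (-0.51) and EREG (-0.61), LIF (-0.61) and CXCL8 (-0.67) are named here because of their values. The list thus held members past 1.5-fold on both sides, 6 higher and 7 lower, against 3.65% and 4.65% of all named genes.

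Relatives outside the member list had medians lower than those of the families they belong to. For the KLF genes the means ran the other way, at 0.23 outside the member list and -0.035 within it. The counts below stand beside 58.6% higher and 40.6% lower among all named genes. Of 8 remaining partners of AP-1 proteins, 3 were higher and 5 lower (2 and 6 after centring or cyclic loess), with ATF2 at -0.37 and JDP2, a repressor of AP-1, at -0.28 at one end and ATF7 (0.062) and BATF3 (-0.21) at the other among those that passed the filter. Of 13 remaining KLF genes, 12 were higher, with a median of 0.12, and after centring 9 were higher and 4 lower, with a median of 0.064 and 0 at least 2-fold higher. KLF12 stood at 10.27 with miR-130b and 9.23 with the empty vector (2.05-fold higher) and KLF11 differed by 0.75, while KLF13 (-0.20) and KLF7 (0.021) were lowest among the 8 that passed. Of the 16 remaining DUSP, SPRY and SPRED genes, 10 were higher and 6 lower, with a median of 0.067, or 9 and 7 after cyclic loess and 8 and 8 after centring. DUSP16, another phosphatase of JNK, was lowest at -0.66 (10.26 with miR-130b, 10.92 with the empty vector), followed by DUSP12 (-0.25), and DUSP3 (0.20) and DUSP14 (0.14) were highest among the 6 that passed.

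**Figure D4:**
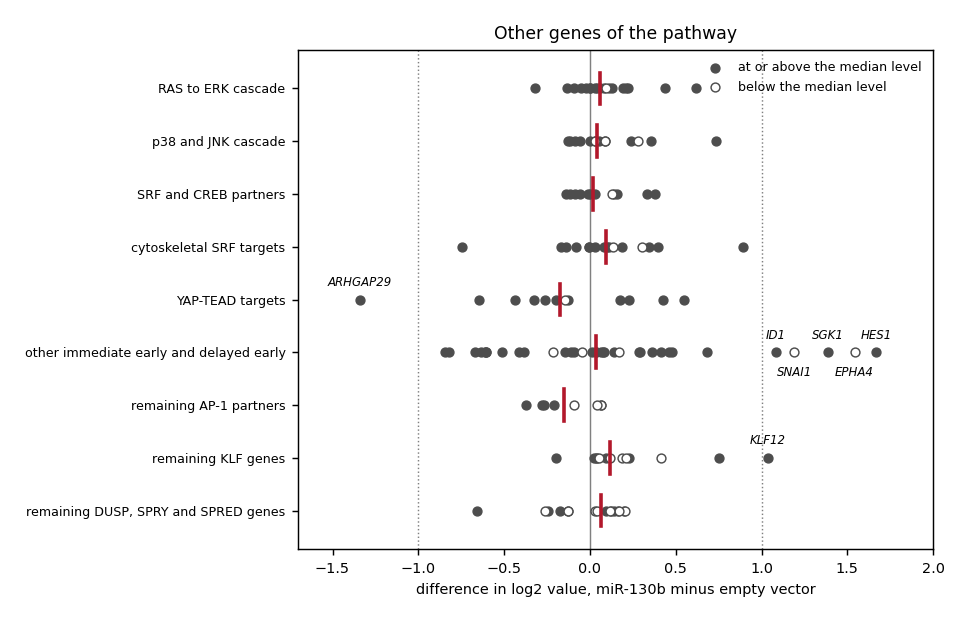
Difference in log2 value (miR-130b minus empty vector, horizontal axis) of each measured gene of the related lists, with filled circles at or above the median level, open circles below it, a red bar at each list's median and dotted lines at 2-fold. List medians run from -0.17 to 0.12, and the genes past 2-fold are ARHGAP29 on the left and ID1, SNAI1, SGK1, EPHA4, HES1 and KLF12 on the right.

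RefSeq promoter windows were found for 34 of the 46 listed genes, 8 of them with more than 1 start, and the 250 bases before each start were searched on both strands for motif letters. The CRE letters TGACGTCA occurred in DUSP1, DUSP8, JUND and ZFP36L1, and in 2.03% of all 27305 genes of the table. Their differences were 0.12, -0.55, 0.39 and 0.42, so genes with these letters lay on both sides of 0. The core TGACG, which the full letters contain, occurred in 19 of the 34, and in 24.9% of all genes. By set it was in 12 of 16 genes of the AP-1, EGR, NR4A, KLF and ZFP36 families and in 4 of 11 DUSP, SPRY and SPRED genes. CArG boxes occurred in EGR1, EGR2 and SRF, and in 1.44% of all genes. The EGR letters GCGGGGGCG were found in 7 of the 34 and in 5.74% of all genes, and the ETS letters ACCGGAAG or CCGGAAGT, which overlap each other, in IER2 alone and in 5.18%. The AP-1 letters TGANTCA were in 0 of the 34 and in 8.06% of all genes, and TATAAA was in 6 of the 34 (CCN2, DUSP1, FOS, FOSB, JUNB and SPRED2) and in 13.0%. TGACG and TATAAA were added after the values were seen. A match is a description of letters in this window.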

How the data were processed

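RNA precipitated with an anti-Ago2 antibody from A549 cells was measured on 2 one-channel Affymetrix arrays, 1 per group, with biotin-labelled whole-transcript cDNA, per the labels' protocols. The table deposited by the authors holds log2 values, 1 for each probe set, a scale read from their range of 1.95 to 14.2. The software, background correction and normalization behind it were not given in the sources used here. Both arrays have a median of 7.77 and almost equal distributions, so differences are relative to other probe sets. The number of arrays limits the precision, and background may shrink folds of low genes.

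Of 33297 probe sets, 19460 carried a single symbol in the platform annotation, 1754 several (not used for genes) and 12083 had no listed gene. Entrez identifiers, of which 19429 matched RefSeq, gave the current symbols, and probe sets averaged to 18417 genes. A level filter kept the 9209 genes with a mean at or above 8.64. Differences are miR-130b minus empty vector. No test was made. The members and lists were chosen with earlier results of these data known. The genes named are all 46 members, MIR130B, and the 2 largest differences each way among genes of each related list that passed the filter. Others (KRT8, CDH1, EPCAM, EPHA4, SNAI1, the secreted factors) were chosen after their values were seen, as were the enzyme genes counted among the A549 markers. Promoter and microRNA sequences are from RefSeq, GRCh38.p14. The gene averaging was tested on simulated data. Alternatives were quantile normalization, cyclic loess, centring, the brightest probe set, a filter at the 75th percentile or none, a 1.5-fold threshold and means. Python 3.11.15, pandas 2.3.3 and, for loess, R 4.3.3 with limma 3.58.1 were used.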

Additional observations from a re-analysis of the deposited data

How the results depend on the processing

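Medians and means refer to the genes that passed the level filter. Some of these genes lay above its value in 1 array only, among them NR4A2, DUSP10, KLF4, MAP3K5 and ARHGAP29. Medians that include such a gene add no support. Quantile normalization and cyclic loess moved no family or list median by more than the SD between probe sets. Centring takes 0.053 from every difference, less than that SD, so it could move no median that far. Every measured member but IER3 had 1 probe set, so the brightest probe set could change only member medians that include IER3. Medians of the related lists moved by less than the SD with it. Under all these settings the median of all named genes stayed between 0.0 and 0.064. MYC and SPRY1 were the 2 members whose sign depended on scaling, and counts of higher and lower genes in the related lists shifted with centring, as given there. Over the 44 measured members, the 5 at least 2-fold higher became 6 after quantile normalization and 4 after centring. All 5 passed the filter, but NR4A2 and DUSP10 only through the miR-130b array, so the filtered count adds no support. With the filter at the 75th percentile, which left 26 members, the count was 2, and medians moved to 0.73 for AP-1, 0.17 for IER, -0.60 for PEA3 (1 gene), 0.50 for SPRY and SPRED (2 genes), -0.013 for YAP-TEAD targets and -0.21 for the remaining DUSP, SPRY and SPRED genes. Both counted genes, FOSB (9.64 with the empty vector) and NR4A1 (9.72), reached that filter's value of 10.34 in the miR-130b array only. So did KLF2 (10.27), IER2 (10.24) and SPRED1 (10.30). DUSP16 (10.26 with miR-130b, 10.92 with the empty vector) reached it in the empty-vector array only. The count and the medians that include any of these genes support nothing. At 1.5-fold, 10 of the members that passed the median filter were higher and 2 lower, against 5.04% and 5.87% of all genes that passed it. These counts include NR4A2, DUSP10 and KLF4, which lay above that filter's value in 1 array only, so they add no support. Means in place of medians gave 0.58 for AP-1, 1.65 for NR4A, -0.035 for KLF, 0.31 for IER, 0.62 for the 5 families of the first set together and 0.25 for the remaining KLF genes. The means for NR4A, KLF and the 5 families include NR4A2 or KLF4, so they add no support either. The other 174 medians and counts that answer a comparison moved by less than the SD or by less than 1.5 times. These include the medians after centring and the member medians with the brightest probe set, which for the reasons given could hardly move. No paired analysis was possible because each group has 1 array. Without detection calls, genes near background could not be marked.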

Other observations

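Among genes of the same pathway with a probe set shared between symbols, and so outside the comparisons, SIK1, a kinase induced by cAMP that restrains CREB coactivators, shares a probe set with LOC102724428 that stood at 12.38 with miR-130b and 12.17 with the empty vector. MRTFA, a cofactor of SRF, shares a probe set with RBM15 that stood at 10.54 with miR-130b and 10.29 with the empty vector.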
